A study of Mus musculus with 12 samples.

Results

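10 immediate-early genes of the Egr, AP-1 and Nr4a families were followed through 12 arrays of mouse double-negative thymocytes: Egr1, Egr2, Egr3, Fos, Fosb, Jun, Junb, Nr4a1, Dusp1 and Ier2. They were chosen by name, as every probe whose symbol in the platform annotation is one of the 10, which gave 12 probes among the 45281 on the array. Probes detected on 3 arrays or more, at a detection p-value under 0.05, were kept, and 10 of the 12 probes, of 9 of the 10 genes, passed among 20651 kept probes in all. The study sorted thymocytes that carry neither CD4 nor CD8, took their total RNA and read it on Illumina MouseWG-6 BeadChips, with 1 sample per array. The Lmo2 Lyl1-knockout group (3 arrays) carries a CD2-Lmo2 transgene and lacks Lyl1, the Lmo2 group (3 arrays) carries the transgene alone, and the wild-type group (6 arrays) carries neither. Per the labels the strain was C57BL/6 and the age 2 months throughout. The CD2 promoter drives the transgene in lymphoid cells, so other cells in the sorted fraction carry it but need not express it. Whether the arrays of a group come from separate animals is not stated, so p-values cover the spread among arrays only, and that may be technical.

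Lyl1, the deleted gene, read 4.80, 5.03 and 4.90 on the log2 scale on the Lmo2 Lyl1-knockout arrays, where it was not detected, against 10.01, 10.19 and 11.64 with the transgene alone and 6.66 to 7.25 in wild-type thymocytes. Cd3e, a T-cell receptor subunit, lay between 13.40 and 13.58 on all 12 arrays. Not every marker was as even. The mean of 12 markers of double-negative thymocytes, Cd3e among them, was 11.07 to 11.43 on Lmo2 arrays and 11.54 to 11.71 on the others. Cd8b1, the beta chain of a co-receptor that the sort should leave out, averaged 12.5 on Lmo2 Lyl1-knockout, 10.5 on Lmo2 and 12.7 on wild-type arrays. Between 37.9% and 43.0% of probes were detected on an array. The wild-type arrays form 2 sets by their replicate number in the labels, 4 to 6 and 1 to 3. The raw table's columns for replicates 4 to 6 also carry the name NHD13, whose meaning here is not given. The sets also differ in sex-linked genes, which were looked at after the values were known. Xist, the RNA of the inactive X chromosome, read 11.59 to 12.14 on wild-type replicates 4 to 6 and 4.46 to 4.55 on replicates 1 to 3, and Eif2s3y, on the Y chromosome, read 4.58 to 4.79 on replicates 4 to 6 and 9.82 to 10.32 on replicates 1 to 3. Both kinds occurred among the other arrays, with Xist high on Lmo2 Lyl1-knockout replicate 1 and on Lmo2 replicates 1 and 3. Each wild-type set is therefore given on its own as well as pooled.

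Immediate-early genes are transcribed within minutes of a stimulus, without the synthesis of other proteins. In thymocytes, signals from the pre-T-cell receptor and the T-cell receptor pass through the ERK and calcium pathways to factors such as SRF with its ternary complex partners and CREB, which already sit near these genes. Egr1, Egr2 and Egr3 encode zinc-finger factors, and Egr activity helps double-negative thymocytes pass beta-selection. Fos and Fosb pair with Jun or Junb to form AP-1, Nr4a1 is an orphan nuclear receptor, Dusp1 is a phosphatase that turns MAP kinases off, and Ier2 is a small nuclear protein. The same genes respond to handling and dissociation of tissue, since stress kinases feed the same factors.

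The motifs through which such signals act were searched on both strands in the 250 bases before each start site, in the RefSeq windows of GRCm38.p6. There were 11 windows for 7 members, 5 of them for Egr2, which overlap in part. Egr1, Egr3 and Ier2 had no window and were not searched. A CArG box, which SRF binds, stood in 4 of the 5 Egr2 windows, against 1.47% of all 32851 windows. Overlapping Egr2 windows hold the same box, so the 4 are not all separate sites. No window of the other members searched held a CArG box. A full cyclic AMP response element, TGACGTCA, stood in the Dusp1 window (1.55% of all windows). An Egr site, GCGNGGGCG, stood in the Fosb and Nr4a1 windows (4.7%), an AP-1 site, TGANTCA, in none (6.75%), and an E-box, CANNTG, which basic helix-loop-helix factors such as Lyl1 bind, in 9 of the 11 (66.2%). No motif's matches overlap those of another in the windows printed. A match is a description of the letters and not of a bound site. The windows of Egr2, Fosb and Dusp1 are shown, since each holds one of these motifs and each gene carries a result given further on. Capitals mark the CArG box of Egr2, whose first base lies 73 bases before the start at chr10:67537620-67537869 on the plus strand, the Egr site of Fosb, 50 bases before the start at chr7:19310046-19310295 on the minus strand, and the response element of Dusp1, 143 bases before the start at chr17:26508473-26508722 on the minus strand.
Egr2: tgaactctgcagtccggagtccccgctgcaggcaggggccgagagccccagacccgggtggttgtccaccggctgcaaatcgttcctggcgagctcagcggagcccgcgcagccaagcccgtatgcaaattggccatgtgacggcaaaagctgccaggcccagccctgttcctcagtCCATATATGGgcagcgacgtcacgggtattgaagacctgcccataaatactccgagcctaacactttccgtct
Fosb: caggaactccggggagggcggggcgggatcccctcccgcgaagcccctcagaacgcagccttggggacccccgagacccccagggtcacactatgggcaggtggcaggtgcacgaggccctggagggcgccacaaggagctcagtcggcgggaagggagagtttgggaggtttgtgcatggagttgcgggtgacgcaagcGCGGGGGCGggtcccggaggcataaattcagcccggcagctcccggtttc
Dusp1: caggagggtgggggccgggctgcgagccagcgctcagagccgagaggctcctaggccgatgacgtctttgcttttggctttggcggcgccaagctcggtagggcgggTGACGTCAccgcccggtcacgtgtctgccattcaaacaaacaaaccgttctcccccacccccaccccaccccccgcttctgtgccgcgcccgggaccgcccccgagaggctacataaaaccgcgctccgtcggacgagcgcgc

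Egr2 and Egr3 were lower in Lmo2 thymocytes than in wild-type and higher in Lmo2 Lyl1-knockout than in Lmo2 thymocytes. Egr3, by its brighter probe, read 9.22, 8.97 and 8.40 on the Lmo2 Lyl1-knockout arrays, 7.28, 5.35 and 5.99 on the Lmo2 arrays, 8.05, 8.26 and 8.25 on wild-type replicates 4 to 6, and 8.70, 8.89 and 9.23 on replicates 1 to 3. Egr2, which also controls myelination and neural crest genes, read 8.83, 7.63 and 8.41 on the Lmo2 Lyl1-knockout arrays, 6.63, 6.58 and 5.81 on the Lmo2 arrays, 7.38, 7.80 and 7.47 on wild-type replicates 4 to 6, and 8.19, 8.51 and 8.60 on replicates 1 to 3. For both genes the 3 Lmo2 arrays were the lowest of the 12, with no overlap with either other genotype. Of all kept probes, 6.1% lay wholly below wild-type in Lmo2 arrays, and 12.3% did not overlap there in either direction. The share lying below both other genotypes was not counted. Egr3 fell by 2.36 ± 0.38 in Lmo2 against wild-type arrays (SE; n = 3 against 6; limma's moderated test, Benjamini-Hochberg adjusted p = 0.00192), a 5.13-fold change, and Egr2 fell by 1.65 ± 0.34 (adjusted p = 0.00891), a 3.14-fold change that missed the threshold where arrays were weighted by quality (-1.25; adjusted p = 0.0721). In Lmo2 Lyl1-knockout against Lmo2 arrays Egr3 rose by 2.66 ± 0.44 (n = 3 each; limma adjusted p = 0.00255) and Egr2 by 1.95 ± 0.39 (adjusted p = 0.0085). On the Lmo2 arrays both genes were detected but dim, with detection p-values up to 0.0235 for Egr3 and 0.00855 for Egr2. The sizes of these differences therefore rest in part on values near background.

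Egr1, the family member most often used as a readout of ERK signalling, did not pass the threshold in any genotype comparison with the authors' normalization and unweighted arrays. It read 11.41, 11.45 and 11.43 on the Lmo2 Lyl1-knockout arrays, 10.99, 10.81 and 9.81 on the Lmo2 arrays, 10.75, 10.85 and 10.68 on wild-type replicates 4 to 6, and 11.21, 11.25 and 11.66 on replicates 1 to 3. The Lmo2 arrays lay below every Lmo2 Lyl1-knockout array but overlapped the wild-type arrays, and Lmo2 replicate 3 was the lowest of all. The difference was 0.89 ± 0.31 in Lmo2 Lyl1-knockout against Lmo2 arrays (limma adjusted p = 0.128) and -0.53 ± 0.27 in Lmo2 against wild-type arrays (adjusted p = 0.284). With arrays scaled to a common median both passed, at 0.86 (limma adjusted p = 0.0216) and -0.71 (adjusted p = 0.0207), and with array weights Egr1 passed in Lmo2 Lyl1-knockout against wild-type arrays (0.55; adjusted p = 0.0382). Egr1 spread least on the Lmo2 Lyl1-knockout arrays, with an SD of 0.020, against 0.64 on Lmo2 and 0.37 on wild-type arrays.

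**Figure D1:**
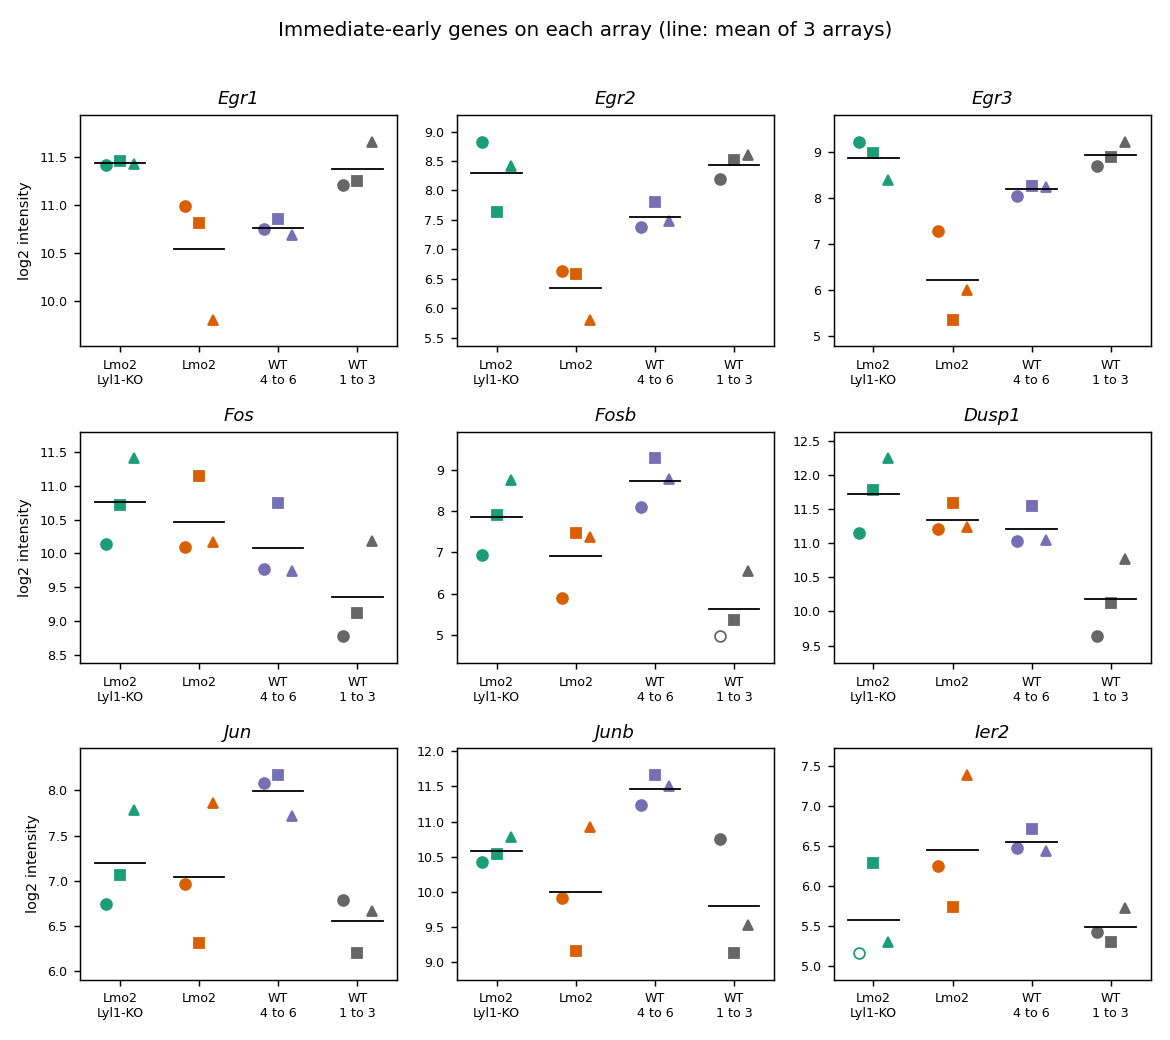
Log2 intensity (vertical axis) of the 9 member genes with a kept probe on each of the 12 arrays, by group along the horizontal axis. Circles, squares and triangles tell the arrays of a set apart, in the order of their replicate numbers, open symbols were not detected, and lines are means of 3 arrays. Egr2 and Egr3 have their 3 lowest arrays in the Lmo2 group, while Fosb runs from 4.97 to 9.27 with both ends on wild-type arrays.

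Fos, Fosb and Dusp1 did not pass the threshold in a comparison of genotypes with all 6 wild-type arrays. Fos read 10.14, 10.72 and 11.41 on the Lmo2 Lyl1-knockout arrays, 10.09, 11.15 and 10.17 on the Lmo2 arrays, 9.76, 10.75 and 9.74 on wild-type replicates 4 to 6, and 8.77, 9.11 and 10.18 on replicates 1 to 3. Dusp1 read 11.15, 11.78 and 12.24 on the Lmo2 Lyl1-knockout arrays, 11.21, 11.59 and 11.23 on the Lmo2 arrays, 11.03, 11.54 and 11.04 on wild-type replicates 4 to 6, and 9.64, 10.12 and 10.77 on replicates 1 to 3. The order of the 4 set means was the same for both genes, with Lmo2 Lyl1-knockout on top, then Lmo2, then wild-type replicates 4 to 6 and replicates 1 to 3, and each set overlapped its neighbour in that order, except that Dusp1 did not overlap between the 2 wild-type sets. The differences in Lmo2 Lyl1-knockout against wild-type arrays were 1.03 ± 0.42 for Fos (n = 3 against 6; limma adjusted p = 0.401) and 1.03 ± 0.37 for Dusp1 (adjusted p = 0.334), and the groups overlapped.

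Fosb had the widest range of the members, 4.30 log2 units. It read 6.93, 7.89 and 8.74 on the Lmo2 Lyl1-knockout arrays, 5.89, 7.47 and 7.37 on the Lmo2 arrays, 8.09, 9.27 and 8.77 on wild-type replicates 4 to 6, and 4.97, 5.37 and 6.54 on replicates 1 to 3, with wild-type replicate 1 not detected. By their means the sets ran from wild-type replicates 4 to 6 through Lmo2 Lyl1-knockout and Lmo2 to wild-type replicates 1 to 3, and each overlapped its neighbour in that order. Against all wild-type arrays the differences were 0.68 ± 0.90 in Lmo2 Lyl1-knockout (limma adjusted p = 0.763) and -0.26 ± 0.90 in Lmo2 arrays (adjusted p = 0.901).

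Jun and Junb, the Jun-side partners, moved alike over the arrays. Jun read 6.74, 7.07 and 7.78 on the Lmo2 Lyl1-knockout arrays, 6.96, 6.31 and 7.86 on the Lmo2 arrays, 8.09, 8.17 and 7.72 on wild-type replicates 4 to 6, and 6.79, 6.20 and 6.67 on replicates 1 to 3. Junb, by its brighter probe, read 10.43, 10.53 and 10.79 on the Lmo2 Lyl1-knockout arrays, 9.91, 9.16 and 10.92 on the Lmo2 arrays, 11.24, 11.66 and 11.51 on wild-type replicates 4 to 6, and 10.75, 9.13 and 9.53 on replicates 1 to 3. In both genes wild-type replicates 4 to 6 had the highest mean and the other 3 sets overlapped one another. Ier2 read 5.17, 6.29 and 5.30 on the Lmo2 Lyl1-knockout arrays, the first of them not detected, 6.25, 5.74 and 7.39 on the Lmo2 arrays, 6.48, 6.72 and 6.44 on wild-type replicates 4 to 6, and 5.43, 5.30 and 5.73 on replicates 1 to 3. Its highest value was on Lmo2 replicate 3. The genotype differences of the 3 genes ran from -0.87 ± 0.49 for Ier2 in Lmo2 Lyl1-knockout against Lmo2 arrays (limma adjusted p = 0.376) to 0.59 ± 0.65 for Junb in the same comparison (adjusted p = 0.711).

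Nr4a1 could not be followed. Its probe read 4.37 to 5.10 and was not well above background on any of the 12 arrays, with detection p-values from 0.0598 to 0.995. Nr4a2, a relative from the list of other immediate-early genes, had a kept probe, and it was not among the genes that changed between genotypes. A second Junb probe was detected on 2 arrays and left out, and a second Egr3 probe was detected on 3 arrays, at 4.61 to 5.70 over all 12. That dim Egr3 probe differed by -0.24 ± 0.22 in Lmo2 against wild-type arrays (limma adjusted p = 0.568), so the Egr3 result rests on the brighter probe.

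Across genotypes, 2 of the 9 member genes tested were lower in Lmo2 than in wild-type arrays and none was higher, where 8.84% of all kept probes changed and 4.18% were lower. The same 2 genes, Egr2 and Egr3, were higher in Lmo2 Lyl1-knockout than in Lmo2 arrays, where 7.03% of kept probes changed and 3.25% were higher. Egr1, Egr2 and Egr3 did not overlap between the groups in that comparison, as 23.8% of all kept probes did not. In Lmo2 Lyl1-knockout against wild-type arrays limma called 0 of the 9 member genes after adjustment and 2, Fos and Dusp1, at an unadjusted p under 0.05. There 0.893% of all genes changed after adjustment and 11.2% had such an unadjusted p. The comparisons share arrays, so their results are not independent of each other. The median difference of the 10 member probes was -0.25 in Lmo2 against wild-type, 0.48 in Lmo2 Lyl1-knockout against Lmo2 and 0.30 in Lmo2 Lyl1-knockout against wild-type arrays, beside -0.01, 0.02 and 0.00 for all kept probes.

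**Figure D2:**
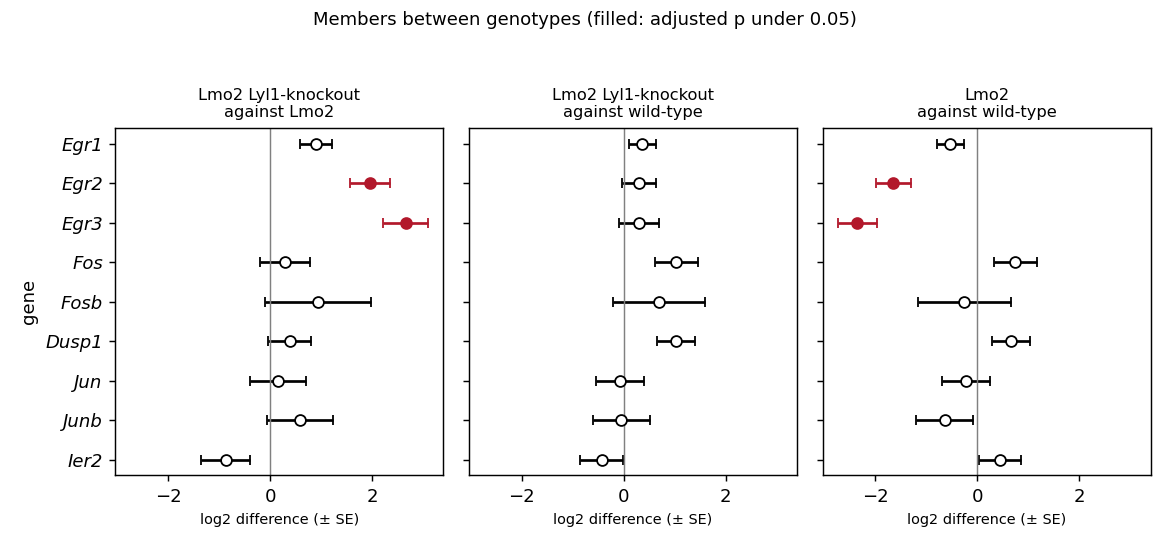
Difference in mean log2 intensity (horizontal axis, with its standard error) for each member gene (vertical axis) in the 3 comparisons of genotypes, first group minus second. Filled red points have an adjusted p under 0.05: Egr2 and Egr3, at 1.95 and 2.66 in Lmo2 Lyl1-knockout against Lmo2 arrays and at -1.65 and -2.36 in Lmo2 against wild-type arrays.

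The largest difference of any member in the comparisons run was between the 2 wild-type sets. Fosb was higher in replicates 4 to 6 than in replicates 1 to 3 by 3.09 ± 0.57 (n = 3 each; limma adjusted p = 0.0192) and Jun by 1.44 ± 0.37 (adjusted p = 0.0464), where 6.27% of kept probes changed and 3.1% were higher. Junb differed by 1.67 ± 0.45 (adjusted p = 0.0527), Dusp1 by 1.03 ± 0.32 (adjusted p = 0.0791) and Ier2 by 1.06 ± 0.39 (adjusted p = 0.118), each with no overlap between the sets, though they missed the threshold. The 3 Egr genes lay the other way. Egr1 differed by -0.61 ± 0.27 (adjusted p = 0.171), Egr2 by -0.88 ± 0.31 (adjusted p = 0.104) and Egr3 by -0.76 ± 0.40 (adjusted p = 0.249), none past the threshold and each without overlap. In all, 5 member probes lay wholly above and 3 wholly below, where 38.9% of all kept probes did not overlap between the sets. The Fosb call was lost without wild-type replicate 2, 3, 5 or 6 (adjusted p from 0.0525 to 0.0825), and the Jun call without any 1 of the 6 wild-type arrays, without Lmo2 Lyl1-knockout replicate 1 or 2, or with no filter on dim probes (adjusted p from 0.0504 to 0.146). With arrays scaled to a common median in place of the authors' normalization the median of all kept probes shifted by 0.39 between these sets, and there Egr1 (0.19) and Egr3 (0.09) changed sign. The raw column names and the sex-linked genes divide the wild-type arrays in the same way, so among them the set, the name NHD13 and the sex of the mice cannot be told apart. Xist also differed within the other genotypes, where the values of Fosb and Jun, the genes called between the wild-type sets, are given. In the Lmo2 Lyl1-knockout group Fosb read 6.93 on the Xist-high array and 7.89 and 8.74 on the others. Jun read 6.74 on that Xist-high array and 7.07 and 7.78 on the others. In the Lmo2 group Fosb read 5.89 and 7.37 on the Xist-high arrays and 7.47 on the other. Jun ran the other way there, at 6.96 and 7.86 on the Xist-high arrays and 6.31 on the other. The part of sex in these values was not tested.

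Against each wild-type set alone, Egr1, Egr2, Egr3, Fos and Dusp1 kept their direction in Lmo2 arrays, and Fosb, Jun, Junb and Ier2 did not. Egr3 differed by -1.98 ± 0.40 against replicates 4 to 6 (n = 3 each; limma adjusted p = 0.00686) and by -2.74 ± 0.40 against replicates 1 to 3 (adjusted p = 0.00165). Egr2 differed by -1.21 ± 0.31 against replicates 4 to 6 (adjusted p = 0.0199) and by -2.09 ± 0.31 against replicates 1 to 3 (adjusted p = 0.00168). Both were thus below either set. Fosb differed by -1.80 ± 0.57 against replicates 4 to 6 (adjusted p = 0.0486), a fall, and by 1.29 ± 0.57 against replicates 1 to 3 (adjusted p = 0.245), so its sign turned with the set. Junb fell against replicates 4 to 6 (-1.48 ± 0.45; adjusted p = 0.0416) and differed by 0.19 ± 0.45 against replicates 1 to 3 (adjusted p = 0.885). Jun differed by -0.95 ± 0.37 against replicates 4 to 6 (limma adjusted p = 0.0973) and by 0.49 ± 0.37 against replicates 1 to 3 (adjusted p = 0.542). Ier2 differed by -0.09 ± 0.39 (limma adjusted p = 0.893) and by 0.97 ± 0.39 (adjusted p = 0.192) in the same order. The member genes called were 4, all lower, against replicates 4 to 6, where 19.5% of kept probes changed and 10.1% were lower, and 2, both lower, against replicates 1 to 3, where 7.1% changed and 3.46% were lower.

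For the Lmo2 Lyl1-knockout arrays limma called 0 of the 9 member genes against either wild-type set, where 10% of kept probes changed against replicates 4 to 6 and 0.707% against replicates 1 to 3. At an unadjusted p under 0.05 it called 3 against replicates 4 to 6, where 31% of kept probes had such a p, and 3 against replicates 1 to 3, where 7.67% did. The largest differences were in Fosb and Dusp1 against replicates 1 to 3, at 2.23 ± 0.57 (adjusted p = 0.16) and 1.55 ± 0.32 (adjusted p = 0.0631), where neither gene overlapped between the groups, as 15.5% of all kept probes did not. Egr2 differed by 0.74 ± 0.31 against replicates 4 to 6 (adjusted p = 0.132) and by -0.14 ± 0.31 against replicates 1 to 3 (adjusted p = 1.0), and Egr3 by 0.68 ± 0.40 (adjusted p = 0.27) and -0.08 ± 0.40 (adjusted p = 1.0).

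**Figure D3:**
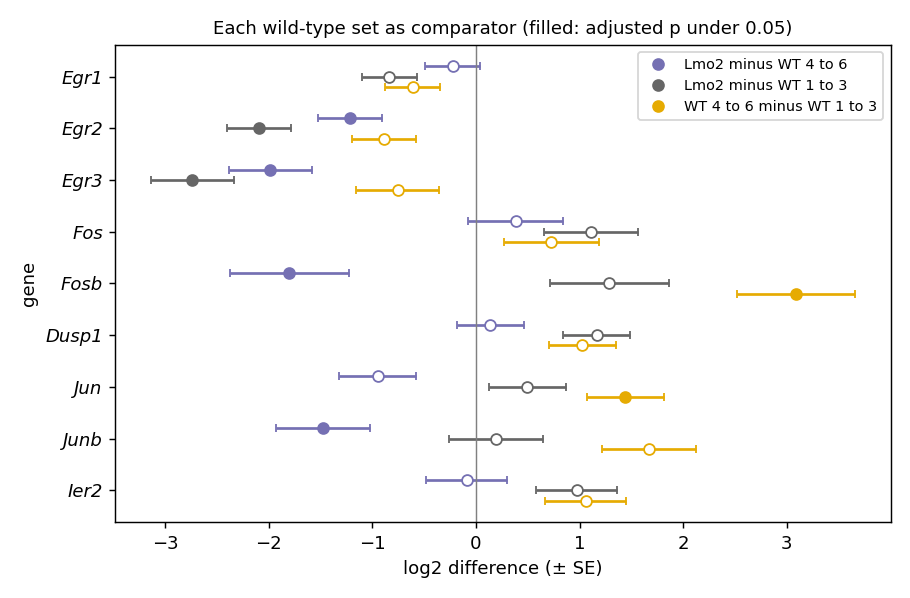
Difference in mean log2 intensity with its standard error (horizontal axis) for each member gene (vertical axis): Lmo2 minus wild-type replicates 4 to 6, Lmo2 minus wild-type replicates 1 to 3, and wild-type replicates 4 to 6 minus replicates 1 to 3. Filled points have an adjusted p under 0.05. Egr2 and Egr3 lie left of 0 against both sets, while Fosb lies at -1.80 against one set and at 1.29 against the other.

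The members did not all vary together. Over the 12 arrays, which share genotypes and wild-type sets, Pearson's r was 0.88 between Egr2 and Egr3, 0.83 between Egr1 and Egr2 and 0.74 between Egr1 and Egr3. It was 0.94 between Fos and Dusp1, 0.77 between Fosb and Dusp1 and 0.67 between Fos and Fosb, and it was 0.89 between Jun and Junb. Fosb was related to the Jun genes as well, at 0.74 with Jun and 0.63 with Junb, and Ier2 reached 0.66 with Jun. Between Egr3 and Fos it was -0.32, and between Egr1 and Ier2 -0.79. These are descriptions over n = 12 arrays, and the group differences given above are part of them.

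Some members shared their highest array within each set. Fos, Fosb and Dusp1 had the same highest array in all 4 sets, which was Lmo2 Lyl1-knockout replicate 3, Lmo2 replicate 2, wild-type replicate 5 and wild-type replicate 3. Jun and Junb had the same highest array in all 4 sets too, which was Lmo2 Lyl1-knockout replicate 3, Lmo2 replicate 3, wild-type replicate 5 and wild-type replicate 1. Lmo2 replicate 2 was thus the highest of its set in Fos, Fosb and Dusp1 and the lowest in Jun and Junb. Wild-type replicate 5 was the highest of its set in all 9 member genes. Hspa1a, a heat-shock gene induced by proteotoxic stress, read 9.12 on wild-type replicate 5 against 5.32 and 5.16 on replicates 4 and 6. It read 8.68, 5.21 and 8.48 on the Lmo2 Lyl1-knockout arrays, 4.51, 4.68 and 9.84 on the Lmo2 arrays and 5.42, 6.73 and 7.47 on wild-type replicates 1 to 3. High and low arrays occurred in every group, and the part of handling in the members' values was not tested.

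**Figure D4:**
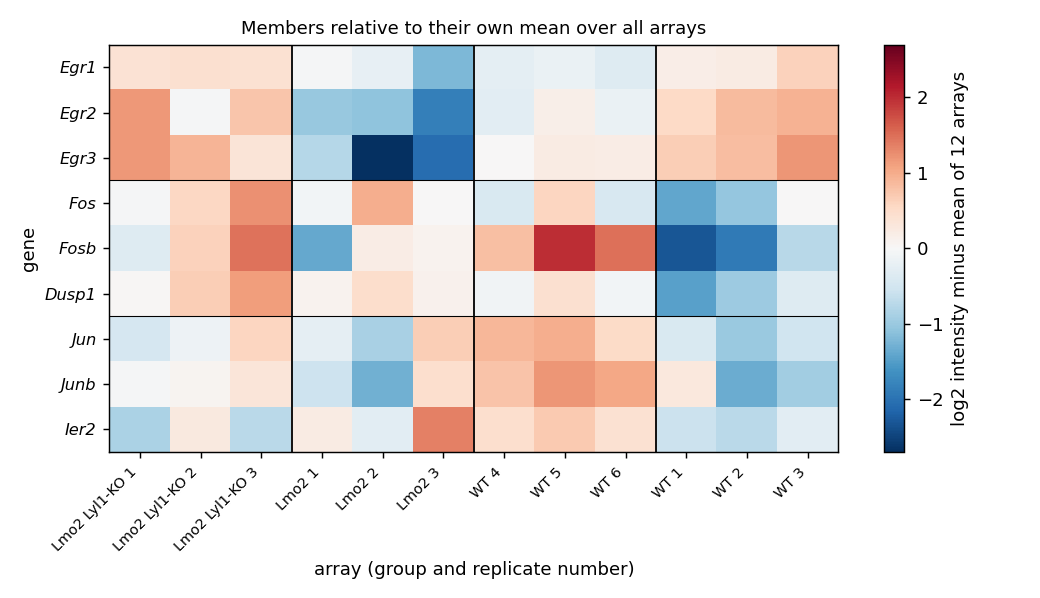
Each member gene (row) on each array (column), as log2 intensity minus that gene's mean over the 12 arrays. Red is above and blue below that mean. The Egr2 and Egr3 rows are lowest on the 3 Lmo2 arrays, the Egr1 row on Lmo2 replicate 3, and the Fosb row is highest on wild-type replicate 5 and lowest on wild-type replicate 1.

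Junb and Ier2 lie on the same chromosome as Lyl1, which bears on any reading of the Lyl1 knockout. In the order of the RefSeq table Lyl1 is 3 places from Ier2 and 21 places from Junb. Of the 22 genes that lie between Ier2 and Junb, Lyl1 left out, 12 were tested. In Lmo2 Lyl1-knockout against Lmo2 arrays 2 of the 12 rose, Farsa, a subunit of phenylalanyl-tRNA synthetase (1.87 ± 0.26; limma adjusted p = 0.00082), and Gadd45gip1, a mitochondrial protein that was detected on 1 of the 3 Lmo2 arrays (1.06 ± 0.26; adjusted p = 0.0297). Another 3 fell, Nfix, a nuclear factor I gene next to Lyl1 in this order (-1.36 ± 0.19; adjusted p = 0.000858), Syce2, a synaptonemal complex gene (-1.22 ± 0.23; adjusted p = 0.00545), and Prdx2, a peroxiredoxin (-0.64 ± 0.15; adjusted p = 0.0246). Of all genes, 8.77% changed in that comparison. In Lmo2 Lyl1-knockout against wild-type arrays 1 of the 12 was called, Farsa, which rose (2.13 ± 0.23, limma adjusted p = 0.00113), where 0.893% of all genes changed. In Lmo2 against wild-type arrays 1 of the 12 was called, Nfix, which rose (0.61 ± 0.17, limma adjusted p = 0.0418), where 10.6% of all genes changed. Neither Junb nor Ier2 passed the threshold in these comparisons.

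Other immediate-early genes gave a mixed picture. Of 36 listed, 24 were tested, and in Lmo2 against wild-type arrays 2 rose and 1 fell, where 10.6% of all genes changed. Fosl2, a Fos relative that also pairs with Jun, read 7.21, 7.30 and 7.35 on the Lmo2 Lyl1-knockout arrays, 5.06, 4.63 and 5.09 on the Lmo2 arrays, 7.23, 6.42 and 7.06 on wild-type replicates 4 to 6, and 6.82, 6.40 and 6.68 on replicates 1 to 3. It was not well above background on any Lmo2 array, so only bounds are given: at least 2.8-fold lower in Lmo2 than in wild-type (limma adjusted p = 8.8e-05) and at least 4.01-fold higher in Lmo2 Lyl1-knockout than in Lmo2 (adjusted p = 4.83e-05). Each bound sets the mean of the brighter group against a floor averaged over the dim arrays, each array's floor being the larger of 2 values, that of the probe itself and the smallest among its detected probes. Trib1, a pseudokinase that steers protein degradation, rose by 1.61 ± 0.36 in Lmo2 against wild-type arrays (adjusted p = 0.0145), and Tnfaip3, a brake on NF-kappaB, by 0.95 ± 0.21 (adjusted p = 0.0124). Of the same 24, 3 rose and none fell in Lmo2 Lyl1-knockout against Lmo2 arrays, where 8.77% of all genes changed, the others being Plk3, a stress kinase (1.29 ± 0.23; adjusted p = 0.00392), and Nfkbiz, an NF-kappaB cofactor (0.99 ± 0.22; adjusted p = 0.0181).

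Between the wild-type sets 3 of the 24 rose in replicates 4 to 6 and none fell, where 5.86% of all genes changed. They were Ppp1r15a, which restarts translation after stress (1.60 ± 0.31; limma adjusted p = 0.0208), Jund, a Jun relative (1.18 ± 0.29; adjusted p = 0.0397), and Zfp36, which destabilises messenger RNAs (0.72 ± 0.18; adjusted p = 0.0425). The median difference of the 24 genes was 0.35, beside 0.03 for all genes. Of the 24, 0 in Lmo2 Lyl1-knockout against wild-type arrays passed limma's threshold and 8 had an unadjusted p under 0.05, of which 7 were higher, where 0.893% of all genes changed after adjustment and 11.2% had such an unadjusted p. The list's median difference there was 0.40, beside -0.01 for all genes.

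The brakes on this signalling moved in both directions. Of 17 tested, 1 rose and 2 fell in Lmo2 against wild-type arrays, where 10.6% of all genes changed. In Lmo2 Lyl1-knockout against Lmo2 arrays 8.77% of all genes changed. Spred1, which blocks RAF activation, read 8.52, 8.70 and 8.63 on the Lmo2 Lyl1-knockout arrays, 6.42, 6.28 and 4.78 on the Lmo2 arrays, while the 6 wild-type arrays lay between 8.63 and 9.04. It fell by 3.02 ± 0.29 in Lmo2 against wild-type arrays (limma adjusted p = 3.31e-05) and rose by 2.79 ± 0.34 in Lmo2 Lyl1-knockout against Lmo2 arrays (adjusted p = 0.000257). Dusp2, a nuclear phosphatase of ERK and p38, ran the other way, with a rise of 1.45 ± 0.16 in Lmo2 against wild-type arrays (adjusted p = 0.000123) and a fall in Lmo2 Lyl1-knockout against Lmo2 arrays (-1.03 ± 0.19; adjusted p = 0.00485). Rgs1, which shortens G-protein signals, fell by 1.36 ± 0.36 in Lmo2 against wild-type arrays (adjusted p = 0.0346), rose by 2.10 ± 0.41 in Lmo2 Lyl1-knockout against Lmo2 arrays (adjusted p = 0.00752) and was higher in wild-type replicates 4 to 6 than in replicates 1 to 3 (1.09 ± 0.28; adjusted p = 0.0431). It was not called in Lmo2 arrays against replicates 1 to 3 alone. The other 14 brakes tested, among them Dusp6 and Nab2, did not pass the threshold in these 2 comparisons of genotypes.

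Upstream of the members, 1 gene was called in each of 2 lists, where 10.6% of all genes changed in Lmo2 against wild-type and 8.77% in Lmo2 Lyl1-knockout against Lmo2 arrays. Of 15 kinases and activators tested 1 rose in Lmo2 against wild-type arrays, Rps6ka5, which phosphorylates histone H3 and CREB (1.23 ± 0.27; limma adjusted p = 0.0123), and it fell in Lmo2 Lyl1-knockout against Lmo2 arrays (-1.25 ± 0.31; adjusted p = 0.0284). Of 10 factors that bind immediate-early promoters 1 rose, Stat3 (0.92 ± 0.18; adjusted p = 0.00732), and it too fell in Lmo2 Lyl1-knockout against Lmo2 arrays (-0.81 ± 0.21; adjusted p = 0.0372). Of 9 partners of the leucine-zipper class tested, limma called 0 after adjustment and 0 at an unadjusted p under 0.05 in either comparison, a p that 25.2% of all genes had in the first and 21.6% in the second.

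**Figure D5:**
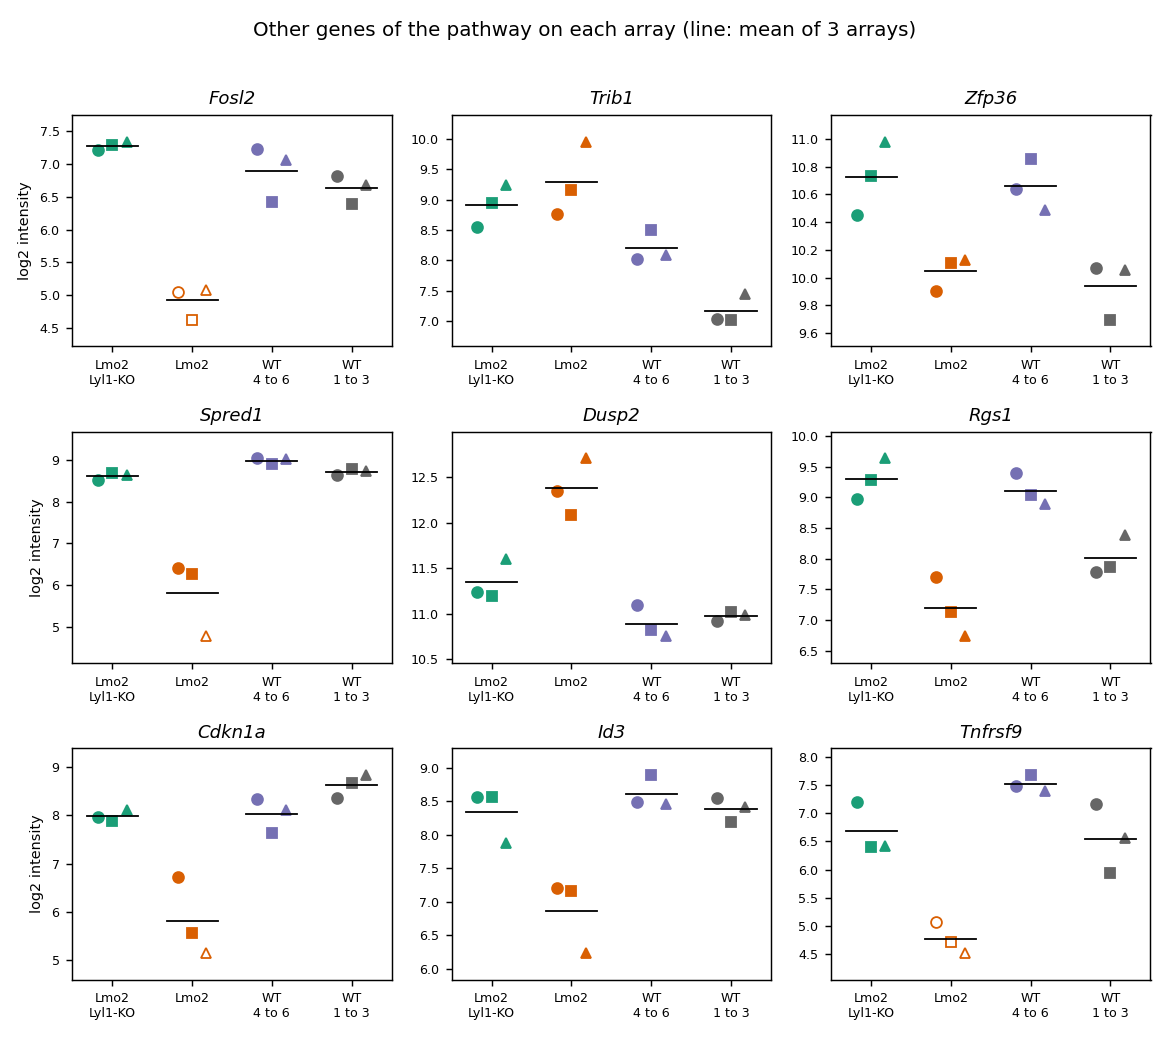
Log2 intensity (vertical axis) on each of the 12 arrays for 9 other genes of the pathway, by group along the horizontal axis, drawn as for the members: open symbols were not detected and lines are means of 3 arrays. Fosl2, Spred1, Rgs1, Cdkn1a, Id3 and Tnfrsf9 have their lowest arrays in the Lmo2 group and Dusp2 its highest, while Zfp36 is at 10.49 to 10.86 on wild-type replicates 4 to 6 and at 9.70 to 10.07 on replicates 1 to 3.

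Genes described downstream of Egr, AP-1 or Nr4a factors in lymphocytes were mostly lower in Lmo2 arrays where they changed. Of 24 listed, 20 were tested, and 8 fell and none rose in Lmo2 against wild-type arrays, where 10.6% of all genes changed. The list's median difference there was -0.48, beside -0.02 for all genes. Against wild-type replicates 4 to 6 alone 9 fell and 2 rose, where 21.8% of all genes changed, against replicates 1 to 3 alone 7 fell and none rose, where 8.5% changed, and 6 fell against both. Id3, an inhibitor of E proteins that Egr factors induce at beta-selection, read 8.56, 8.56 and 7.88 on the Lmo2 Lyl1-knockout arrays, 7.21, 7.16 and 6.23 on the Lmo2 arrays, while the 6 wild-type arrays lay between 8.19 and 8.89. It fell by 1.63 ± 0.24 in Lmo2 against wild-type arrays (limma adjusted p = 0.00105) and rose by 1.47 ± 0.28 in Lmo2 Lyl1-knockout against Lmo2 arrays (adjusted p = 0.00635). Cdkn1a, a cyclin-dependent kinase inhibitor, fell by 2.52 ± 0.32 (adjusted p = 0.000351) and rose by 2.17 ± 0.37 (adjusted p = 0.00319) in the same comparisons. Tnfrsf9, a costimulatory receptor, was not detected on any Lmo2 array and was at least 3.37-fold lower there than in wild-type arrays (adjusted p = 0.00146) and at least 2.63-fold higher in Lmo2 Lyl1-knockout than in Lmo2 arrays (adjusted p = 0.0125). Fasl, a death ligand, fell by 2.17 ± 0.32 in Lmo2 against wild-type arrays (adjusted p = 0.000957), and Cd44, an adhesion receptor of early thymocytes, rose by 1.26 ± 0.20 in Lmo2 Lyl1-knockout against Lmo2 arrays (adjusted p = 0.00172). In that comparison 4 of the 20 rose and none fell, where 8.77% of all genes changed. In Lmo2 Lyl1-knockout against wild-type arrays limma called 0 of the 20, and 1 had an unadjusted p under 0.05. Of all genes, 0.893% changed there after adjustment and 11.2% had such an unadjusted p.

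Between the wild-type sets, where Fosb and Jun differed, the downstream list had 1 gene higher and 1 lower of 20. Of all genes, 5.86% changed there. Cblb, a ubiquitin ligase that restrains activation, fell in replicates 4 to 6 (-0.95 ± 0.18; limma adjusted p = 0.0208). Pdcd1, an inhibitory receptor, was at least 1.64-fold higher there (adjusted p = 0.0493) and was not detected on replicates 1 to 3.

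Markers of other cells that a double-negative sort can hold moved with several of these results. Of 14 granulocyte and monocyte markers tested, 11 rose in Lmo2 Lyl1-knockout against Lmo2 arrays, where 8.77% of all genes changed. In Lmo2 Lyl1-knockout against wild-type arrays 7 rose, where 0.893% of all genes changed. In wild-type replicates 4 to 6 against replicates 1 to 3, 2 rose, where 5.86% of all genes changed. The mean log2 value of the 14 was 9.05 to 10.75 on Lmo2 Lyl1-knockout arrays, 5.61 to 6.38 on Lmo2 arrays, 6.93 to 8.18 on wild-type replicates 4 to 6 and 6.02 to 6.66 on replicates 1 to 3. On the Lmo2 arrays 4 to 11 of the 14 were detected, and on wild-type replicates 1 to 3, 9 to 10. In Lmo2 arrays against wild-type replicates 1 to 3 alone limma called 0 of the 14 after adjustment and 1 at an unadjusted p under 0.05 (21.6% of all genes). In that comparison 9 of 11 natural killer and innate lymphoid and 7 of 8 dendritic-cell markers fell, where 8.5% of all genes changed after adjustment. Natural killer and innate lymphoid markers fell in 9 of 11 in Lmo2 against wild-type arrays, where 10.6% of all genes changed. They rose in 6 of 11 in Lmo2 Lyl1-knockout against Lmo2 arrays. Their mean was 8.74 to 9.05 on Lmo2 Lyl1-knockout, 6.85 to 8.04 on Lmo2, 9.71 to 9.98 on wild-type replicates 4 to 6 and 9.44 to 9.64 on replicates 1 to 3.

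As a background to the counts below, 10.6% of all genes changed in Lmo2 against wild-type arrays and 8.77% in Lmo2 Lyl1-knockout against Lmo2 arrays. Between the wild-type sets 5.86% changed. Of 8 dendritic-cell markers tested, 3 fell in Lmo2 against wild-type arrays, H2-DMa, Irf8 and Siglech, and 2 fell in wild-type replicates 4 to 6 against replicates 1 to 3, H2-Aa (-2.67) and H2-Eb1 (-1.93). Their mean was 8.92 to 9.52 on Lmo2 Lyl1-knockout arrays, 7.76 to 8.95 on Lmo2 arrays, 8.71 to 9.18 on wild-type replicates 4 to 6 and 10.01 to 10.13 on replicates 1 to 3. Of 12 markers of double-negative thymocytes, 3 fell in Lmo2 against wild-type arrays, Ptcra, the pre-T-cell receptor alpha chain whose signal induces Egr genes (-2.78 ± 0.36; limma adjusted p = 0.000355), Rag1 and Cd7. On Lmo2 arrays the mean of the 12 was 11.07 to 11.43, against 11.54 to 11.64 on Lmo2 Lyl1-knockout arrays. It was 11.63 to 11.66 on wild-type replicates 4 to 6 and 11.56 to 11.71 on replicates 1 to 3. The mean of the double-negative list was thus lower on all 3 Lmo2 arrays than on any other array, as Egr2 and Egr3 were. The same held for the means of the double-positive, mature T-cell, and natural killer and innate lymphoid markers, and of the downstream list. Of 4 double-positive markers Cd8b1 and Ets2 fell in Lmo2 against wild-type and rose in Lmo2 Lyl1-knockout against Lmo2 arrays, and the mean of the 4 was 8.67 to 8.78 on Lmo2 Lyl1-knockout, 7.67 to 7.74 on Lmo2, 8.43 to 8.80 on wild-type replicates 4 to 6 and 8.70 to 8.96 on replicates 1 to 3. Of 5 mature T-cell markers Ctla4 and Ly6c1 fell in Lmo2 against wild-type arrays, Ctla4 and Icos rose in Lmo2 Lyl1-knockout against Lmo2 arrays, and their mean was 8.998 to 9.51 on Lmo2 Lyl1-knockout, 7.29 to 8.48 on Lmo2, 9.26 to 9.56 on wild-type replicates 4 to 6 and 9.15 to 9.45 on replicates 1 to 3. Of the remaining lists, 2 of 5 gamma-delta T-cell, 2 of 3 erythroid and megakaryocyte and 1 of 3 macrophage markers rose, 1 of 6 B-cell markers fell and 0 of 2 stromal markers were called in Lmo2 against wild-type arrays. The part of these cells in the members' differences was not tested. In sorted bulk samples, fewer cells of a type and less RNA per cell cannot be told apart.

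The genes whose profiles lay closest to the members were named by Pearson's r over the 12 arrays among 10517 other genes, as a description. For the mean of the 9 members the closest was Zfp36, itself an immediate-early gene, at 0.94, followed by Snora70, Gm5150, Acoxl and Zfp593 at 0.86 to 0.89. Zfp36 averaged 10.72 on Lmo2 Lyl1-knockout, 10.05 on Lmo2, 10.66 on wild-type replicates 4 to 6 and 9.94 on replicates 1 to 3. Egr3 was closest to Rin3, St6gal1 and H2-DMa at 0.97 to 0.98, the last of them also on the dendritic-cell list, and Egr2 to Ephx1, Cldn10 and Mtch1 at 0.94 to 0.95. Egr1 was closest to Tmem109, Vps37b and Camta2 at 0.95. Fos and Dusp1 shared their closest gene, Gcgr, at 0.89 each, and also Atp8b2. Fosb was closest to Dnaaf2, Snora70 and Fgg at 0.88 to 0.89, Jun to Gdpd3, Nfib and Gucy2e at 0.92 to 0.93, Junb to Zfp692, Sdad1 and Paqr7 at 0.95 to 0.96, and Ier2 to Trim62, A630001G21Rik and Galns at 0.92 to 0.95. Some of these probes are dim, beside a median over all probes of 4.88 to 4.89 per array. Over the 12 arrays Gcgr read 4.51 to 5.53, Fgg 4.44 to 5.61 and Gucy2e 4.46 to 5.58. The lowest values of Gm5150, Acoxl, Nfib, Trim62 and Cldn10 also lay below that median, for Cldn10 at 4.71 in the Lmo2 group.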

How the data were processed

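Total RNA of sorted thymocytes was read on 12 single-colour arrays of 45281 probes. The deposited value table holds log2 values per probe and array, made by the authors with BeadStudio and limma per the submitters' processing notes; the sources used here do not give versions, background method or genome build. Per the file headers, the deposited raw table has 2 columns for each array, a linear intensity and a detection p-value. Each column of the value table matched 1 raw column (rank correlation 1.0, at most 0.904 for the next best). The value table was used for levels and the raw table for detection.

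Probes detected at p under 0.05 on at least 3 arrays were kept. A linear model was fitted to all 20651 kept probes with limma 3.58.1 in R 4.3.3 (lmFit, contrasts, eBayes), with 3 genotype means (9 residual degrees of freedom), or with 4 means where a wild-type set stands alone (8 degrees). Tests are limma's moderated test, two-sided, adjusted by Benjamini-Hochberg over all kept probes and called at 0.05. The code was tested on simulated data. For gene lists a gene is its kept probe with the highest mean (10526 genes). Members and lists were chosen with earlier results of these data known. The text names all member probes, up to 4 called genes per list and comparison, the genes around Lyl1 and the closest profiles. Cd3e, Cd8b1, Hspa1a, Xist, Eif2s3y, Nr4a2, Dusp6 and Nab2 were named after their values were seen. Arrays of the same replicate number did not deviate together over all kept probes (r from -0.350 to 0.209). With 3 arrays to a mean this cannot show whether the numbers pair samples, and the main fit pairs none. The number of arrays limits the precision. Alternatives were neqc (offset 16), median scaling, other filters, 1 probe per gene, array weights, a trended robust fit, each array left out and each wild-type set alone.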

Additional observations from a re-analysis of the deposited data

How the results depend on the processing

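The fall of Egr3 in Lmo2 against wild-type arrays passed the threshold in all 23 alternatives and its rise in Lmo2 Lyl1-knockout against Lmo2 arrays in all 22. Egr2 passed in all 22 of the second comparison and in 22 of 23 of the first. The number of members called, 2 in Lmo2 against wild-type arrays, was 1 with array weights, 3 with median scaling, where Egr1 passed, and 4 with wild-type replicates 4 to 6 alone. In Lmo2 Lyl1-knockout against Lmo2 arrays it was 3 with median scaling, again with Egr1, in place of 2. In Lmo2 Lyl1-knockout against wild-type arrays it was 1, Egr1, with array weights, in place of 0. Between the wild-type sets it was 8 with array weights, 6 with median scaling, 3 with 1 probe per gene, where Junb passed (1.67; limma adjusted p = 0.0490), 1 with no filter on dim probes, and 0 to 6 with an array left out.

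The number of probes called was 567 in Lmo2 against wild-type, 340 in Lmo2 Lyl1-knockout against Lmo2, 24 in Lmo2 Lyl1-knockout against wild-type and 9274 between the wild-type sets with median scaling, against 1825, 1452, 146 and 1295. Calls that were higher made up 32.8% in place of 52.7% in the first comparison, 55.9% in place of 46.3% in the second, 41.7% in place of 56.2% in the third and 96.9% in place of 49.4% in the last. With array weights 4642 and 7827 were called in the last 2 comparisons, and with 1 probe per gene 705 between the wild-type sets. Against wild-type replicates 4 to 6 alone 4028 were called in Lmo2 and 2066 in Lmo2 Lyl1-knockout arrays. With an array left out the counts ran from 958 to 1630 in Lmo2 Lyl1-knockout against Lmo2, from 44 to 183 in Lmo2 Lyl1-knockout against wild-type and from 32 to 3232 between the wild-type sets. Without Lmo2 Lyl1-knockout replicate 2 or 3 they were 962 and 958 in the first of these and 44 and 49 in the second. Between the wild-type sets they were 210, 32, 324, 50 and 34 without wild-type replicate 2, 3, 4, 5 or 6, 775 without Lmo2 Lyl1-knockout replicate 2 and 3232 without Lmo2 replicate 3. Median scaling shifted the median of all kept probes by 0.39 between the wild-type sets and by -0.14 in Lmo2 against wild-type arrays. The cause of these moves was not tested, beyond the fewer arrays where one was left out.

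The replicate number as a block, on the 9 arrays numbered 1 to 3, gave 789, 949 and 31 probes in the 3 comparisons of genotypes. The same arrays without the block, a setting added after the values were seen, gave 947, 1225 and 75. It changed no call of a member, and no paired fit was possible between the wild-type sets because they share no number. BeadChip as a block was not run, since the headers used here name no chip.

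Some differences turned sign against their value over all 12 arrays. With wild-type replicates 1 to 3 alone, and equally in both fits of the 9 arrays, Lmo2 against wild-type gave 1.29 for Fosb, 0.49 for Jun and 0.19 for Junb, and Lmo2 Lyl1-knockout against wild-type gave -0.14 for Egr2, -0.0777 for Egr3, 0.64 for Jun, 0.78 for Junb and 0.10 for Ier2. With wild-type replicates 4 to 6 alone Ier2 gave -0.0881 in Lmo2, and Fosb gave -0.86 and the dim Egr3 probe -0.0938 in Lmo2 Lyl1-knockout arrays. With median scaling Egr1 gave 0.19 (-0.71 with array weights, where it was called) and Egr3 0.0922 between the wild-type sets and the dim Egr3 probe -0.0011 in Lmo2 Lyl1-knockout against wild-type. With array weights Ier2 gave -0.10 in Lmo2 against wild-type, and Fosb gave -0.19 and the dim Egr3 probe -0.0151 in Lmo2 Lyl1-knockout against wild-type. With an array left out, Lmo2 against wild-type ran from -0.69 to 0.25 for Fosb, from -0.63 to 0.14 for Jun and from -0.0223 to 0.80 for Ier2. Lmo2 Lyl1-knockout against Lmo2 ran from -0.0395 to 0.63 for Fos and from -0.22 to 0.56 for Jun. Lmo2 Lyl1-knockout against wild-type ran from -0.37 to 0.15 for Jun, from -0.35 to 0.15 for Junb and from -0.0836 to 0.13 for the dim Egr3 probe. Signal over background sets a limit for Nr4a1, the second Junb probe and the dim Egr3 probe, detected on 0, 2 and 3 of the 12 arrays, and for Ier2 and Fosb, each with 1 array not detected. It also limits the size of the Egr2 and Egr3 differences, since both genes were detected but dim on the Lmo2 arrays.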
